A study of Homo sapiens with 4 samples.

Results

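The genes of mitosis and chromosome segregation comprised 52 named genes that carry a cell from mitotic entry through spindle assembly, anaphase and cytokinesis. They were taken by gene name from the deposited expression files, which held 58735 genes, and all 52 names were found. A mean of at least 1 FPKM (fragments per kilobase of transcript, scaled to sequencing depth) over the 4 libraries was required before ratios were summarised. This left 12949 genes, among them 51 of the 52, since PRC1 stayed under it. RNA was sequenced from the human glioblastoma (GBM) cell lines U251 and U87, each untreated (Control group) or treated with brusatol (Bru), a quassinoid from the seeds of Brucea javanica, for 48 hours at the concentration the study names as the IC50. That concentration is not given with the libraries, nor whether it was the same in both lines, so that line and dose cannot be told apart where the lines are compared. The Control libraries are called untreated after the series' description. Other assays of the study used DMSO alone in the Control group, and whether these libraries did is not stated. Each of the 4 conditions was 1 library of 1 established line grown in culture. There was therefore no replicate error within a line, no test was run and no p-value is given. Ratios below are log2 of Bru over Control on FPKM + 0.1, an offset that shrinks ratios of weakly expressed genes. Each carries an exact 95% counting interval of the ratio of reads, taken without that offset. The interval covers counting error only.

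Entry into mitosis is driven by CDK1 bound to cyclin B, after which condensin compacts the chromosomes and kinetochores built on centromeres attach them to spindle microtubules. Unattached kinetochores keep the spindle checkpoint active, and once it is satisfied CDC20 turns on the anaphase-promoting complex (APC/C), which marks cyclin B and securin for destruction so that separase can cut cohesin. Most of these genes are transcribed late in the cycle, by MYBL2 and FOXM1 together with the MuvB complex, which binds a promoter element called the cell cycle genes homology region, often near CCAAT boxes. Their mRNAs are used in glioma as markers of dividing cells.

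Promoter stretches are printed for 6 members to show these elements in the genes whose ratios are described afterwards. They are the members with a TTTGAA match, the core of the cell cycle genes homology region, inside the 120 bases before the start site and with the lowest U251 ratios. The letters were read from RefSeq (GRCh38.p14) and run 5′ to 3′ on the strand of the gene. Capitals mark TTTGAA or its reverse complement TTCAAA, and CCAAT or its reverse complement ATTGG.
MKI67 (chr10:128126424-128126543, minus strand): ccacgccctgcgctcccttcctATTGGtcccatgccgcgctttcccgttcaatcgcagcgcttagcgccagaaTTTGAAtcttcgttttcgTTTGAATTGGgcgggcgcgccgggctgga
INCENP (chr11:62123891-62124010, plus strand): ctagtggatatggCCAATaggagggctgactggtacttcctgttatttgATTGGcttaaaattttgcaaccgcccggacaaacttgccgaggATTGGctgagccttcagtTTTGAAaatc
ESPL1 (chr12:53268179-53268298, plus strand): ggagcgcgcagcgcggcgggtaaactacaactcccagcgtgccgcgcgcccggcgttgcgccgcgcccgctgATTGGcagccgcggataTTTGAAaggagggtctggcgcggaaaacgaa
ASPM (chr1:197146670-197146789, minus strand): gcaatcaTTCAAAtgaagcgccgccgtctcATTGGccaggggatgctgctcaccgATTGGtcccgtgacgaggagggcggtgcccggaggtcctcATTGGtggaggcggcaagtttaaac
KIF15 (chr3:44761674-44761793, plus strand): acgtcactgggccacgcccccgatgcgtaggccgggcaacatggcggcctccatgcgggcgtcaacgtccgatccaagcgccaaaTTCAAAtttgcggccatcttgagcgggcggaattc
KIF11 (chr10:92593010-92593129, plus strand): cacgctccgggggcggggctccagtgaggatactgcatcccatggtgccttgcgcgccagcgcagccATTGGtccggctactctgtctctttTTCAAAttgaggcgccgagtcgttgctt
MKI67 held 2 TTTGAA matches, of which the one nearer the start began at position -29, counted back from the start, and ran into an ATTGG. In INCENP, 1 TTTGAA began at position -10, after 3 CCAAT matches. ASPM also held 3 CCAAT matches, with its TTTGAA match farthest from the start, at position -113. KIF15 held no CCAAT match in this stretch.

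RefSeq promoter windows of 300 bases, from 250 before to 50 after a start, were matched for 45 of the 52 genes. AURKA, BIRC5, BUB3, FOXM1, TPX2, TTK and UBE2C had no entry. TTTGAA stood on either strand in a window of 33 of the 45 (73.3%), against 18.2% of all 27305 genes with a window and 13.6% of the 8719 protein-coding genes past the filter. Counted by window, it was in 36 of 54 (66.7%), against 15.2% of all 35116. CCAAT was in 33 of 45 genes (73.3%), against 39.7% of all genes, and 2 or more copies were in 21 (46.7%), against 12.9%. Both elements shared a window in 25 genes (55.6%), against 7.26%. The elements thus stood more often in these promoters than in promoters at large. Of the 48 TTTGAA matches, 37 began between 100 bases before and 50 after the start, with a median first base at -28.5. A match is a description of letters, not of binding. Within the 51 genes the 32 with TTTGAA had median log2 ratios of -0.70 (U251) and -0.09 (U87), and the 12 without it had -0.60 and -0.11. For CCAAT the medians were -0.62 and -0.09 with it and -0.64 and -0.09 without it. Neither element separated larger from smaller ratios.

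The results showed that mitosis genes were lower after Bru in U251 and close to their Control level in U87. In U251, 49 of the 51 genes had a ratio below 0, against 52.1% of all genes tested, and the median log2 ratio was -0.61 (range -1.23 to 0.11), against -0.03 over all genes. In U87, 42 of 51 were below 0, against 56.7% of all genes, but the median was only -0.09 (range -0.35 to 0.17), against -0.04. Summed over the 52 genes, reads changed by a log2 ratio of -0.64 (-0.65 to -0.63) in U251 and -0.11 (-0.12 to -0.10) in U87. In bulk RNA of this kind, fewer dividing cells and less mitotic RNA per cell cannot be told apart.

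**Figure D1:**
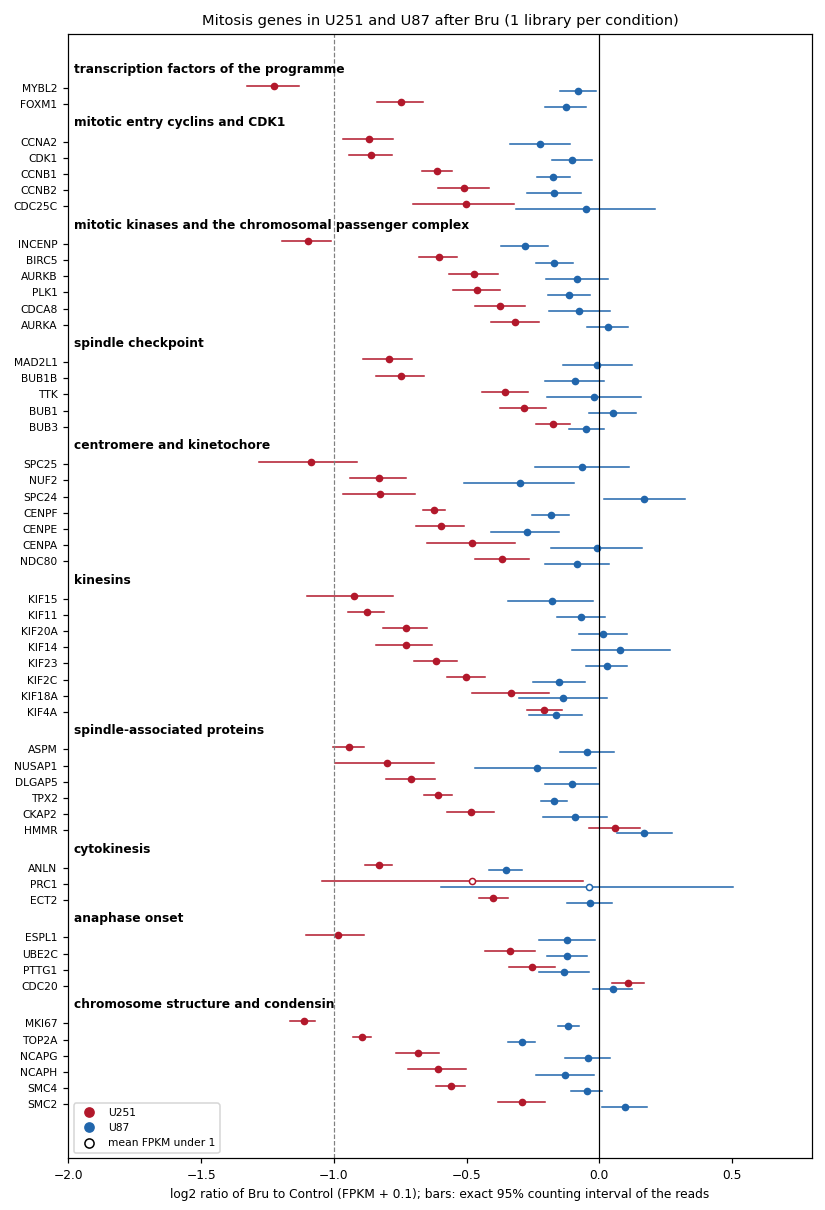
Log2 ratio of Bru to Control (horizontal axis, FPKM + 0.1) for each of the 52 genes, grouped by role, with U251 in red and U87 in blue. Points are single ratios, bars are exact 95% counting intervals and open points mark PRC1, whose mean FPKM is under 1. Red points lie left of blue ones in every row but CDC20 among the 51 genes past the filter, and the dashed line marks a fall of 2-fold.

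By size, 4 of the 51 genes (7.84%) were more than 2-fold lower in U251, against 5.44% of all genes, and 0 were more than 2-fold higher, against 3.36%. Those 4 were MYBL2 (chr20:43667019-43716496, plus strand), MKI67 (chr10:128096659-128126385, minus strand), INCENP (chr11:62123973-62153163, plus strand) and SPC25 (chr2:168834132-168913371, minus strand), with gene bounds on GRCh38 as the files give them. The share past 2-fold was thus near that of genes at large. At 1.5-fold the picture differed, since 29 genes (56.9%) were lower, against 15.6% of all genes, and 0 were higher, against 11.3%. In U87, 0 genes passed 2-fold in either direction (background 1.41% lower and 1.92% higher) and 0 passed 1.5-fold (4.49% lower and 4.56% higher). The U251 shift was therefore moderate and shared by most genes, as the cumulative curves show, rather than carried by a few large ratios.

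**Figure D2:**
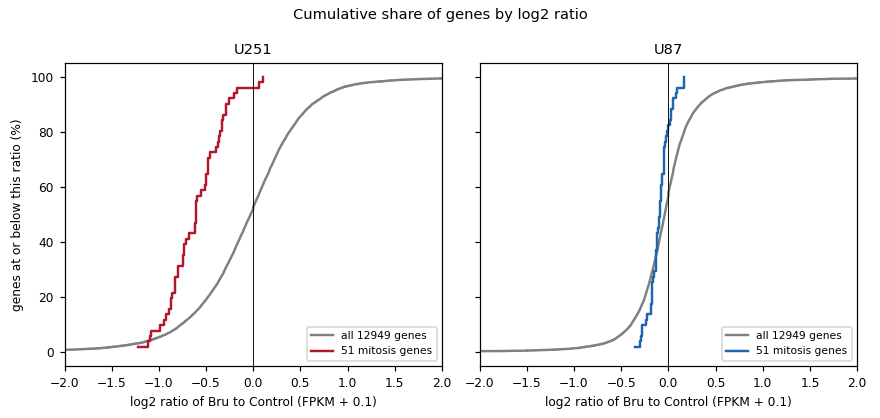
Cumulative share of genes (vertical axis, percent) at or below each log2 ratio of Bru to Control (horizontal axis), for the 51 mitosis genes (coloured) and all 12949 genes tested (grey), U251 on the left and U87 on the right. In U251 the coloured curve reaches 96.1% below 0, where the grey one is at 52.1%. In U87 it crosses 0 at 82.4%, against 56.7%.

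The counting interval lay wholly below 0 for 49 genes in U251, against 35.9% of all genes. It lay above 0 for 1, CDC20, against 30.9%, and that of HMMR included 0. In U87 it lay below 0 for 25 genes, against 28% of all genes, and above 0 for 3 (SPC24, SMC2 and HMMR), against 15.7%. The U87 counts depended on the scaling of the libraries: with the 75th percentile as the common level, 13 lay below 0 and 7 above. The interval lay below 0 in both lines for the same 25 genes, 49% of the members, against 18% of all genes. With 49 genes below 0 in U251, this count could hardly differ from that of U87 alone. Counting intervals narrow as reads rise, and the mitosis genes were more abundant than genes at large (medians 33.7 and 6.50 FPKM in U251 Control). The shares of all genes given beside interval counts, here and below, were not matched for level. How far level enters these gaps was not tested.

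Between the lines, the U251 ratio was below the U87 ratio for 50 of the 51 genes, against 49.1% of all genes. CDC20 was the exception. The 2 intervals did not overlap, with U251 lower, for 45 genes, against 18.6%, a share likewise not matched for level. The intervals of PTTG1, CDC20, KIF18A, KIF4A, BUB3 and HMMR overlapped. The median difference, U251 minus U87, was -0.47, against 0.01 over all genes. Across the 51 genes the ratios in the 2 lines had a Pearson r of 0.38 and a Spearman rho of 0.33, against 0.23 and 0.40 over all 12949 genes, given as a description of genes that share their libraries.

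Reads on genes ran from 17083896 to 21453561 per library, and single mitosis genes past the filter had 235 to 20738 reads. Together the 52 genes held 0.946% of the reads of untreated U251 (exact 95% interval 0.942 to 0.951) and 0.647% of treated U251 (0.643 to 0.651), beside 0.653% of untreated U87 (0.649 to 0.656) and 0.622% of treated U87 (0.619 to 0.626). The U251 Control library stood above the other three, and the intervals of treated U251 and untreated U87 overlapped. The genes' median level was 33.7, 21.8, 24.4 and 23.4 FPKM in the same order, while that of all genes stayed between 6.11 and 6.50 FPKM. Mitochondrially encoded genes took 3.01% and 2.43% of reads in U251 Control and Bru and 3.93% and 4.06% in U87, and their part in the ratios is given by the scaling without them.

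Among the transcription factors of the mitotic programme, MYBL2, which joins MuvB to turn on late cell cycle genes, had the lowest U251 ratio of all members. Its level was 53.0 FPKM in untreated and 22.6 in treated U251, beside 71.0 in untreated and 67.2 in treated U87. The treated U251 library stood apart from the other three. The log2 ratio of MYBL2 was -1.23 (-1.33 to -1.13) in U251 but -0.08 (-0.15 to -0.01) in U87. FOXM1, a forkhead factor that follows it at the same promoters, was at 29.9 and 17.8 FPKM in U251 Control and Bru and at 34.2 and 31.3 FPKM in U87. Again treated U251 was the low library, with ratios of -0.75 (-0.84 to -0.66) and -0.13 (-0.20 to -0.05).

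All 5 genes of mitotic entry were lower in U251 with intervals below 0 (35.9% of all genes). Of these 5, 3 were more than 1.5-fold lower (15.6% of all genes), and the median was -0.61, against -0.17 in U87. In this and the following role groups, counts below 0 compare with 52.1% of all genes in U251 and 56.7% in U87. CCNA2, the A-type cyclin of S phase and early mitosis, was at 49.2 and 26.9 FPKM in U251 Control and Bru and at 27.3 and 23.4 FPKM in U87. Bru thus left CCNA2 in U251 at the untreated level of U87. Its ratios were -0.87 (-0.96 to -0.78) and -0.22 (-0.34 to -0.11). CDK1, the kinase of mitotic entry, had 46.5 and 25.6 FPKM in U251 and 44.3 and 41.3 FPKM in U87. It started from nearly the same level in both lines and was low in treated U251, with ratios of -0.86 (-0.94 to -0.78) and -0.10 (-0.18 to -0.03). CCNB1, its main cyclin partner and among the most abundant members, had 133 and 87.3 FPKM in U251 and 98.9 and 87.6 FPKM in U87. The treated libraries of the 2 lines thus met at one level of CCNB1, and the ratios were -0.61 (-0.67 to -0.56) and -0.17 (-0.24 to -0.11). CDC25C, a phosphatase that activates CDK1, was the least abundant of the 5, with 8.61 and 6.05 FPKM in U251 and 4.19 and 4.04 FPKM in U87. Its ratio was -0.50 (-0.70 to -0.32) in U251, and its U87 ratio of -0.05 (-0.31 to 0.21) was not told from 0 and turned above 0 under scaling to the 75th percentile. CCNB2 lay between, at -0.51 and -0.17.

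The mitotic kinases and the chromosomal passenger complex comprised 6 genes, all lower in U251 (median -0.47) and 5 below 0 in U87 (median -0.10). INCENP, the scaffold that holds Aurora B at centromeres, was at 34.9 and 16.2 FPKM in U251 Control and Bru and at 29.6 and 24.4 FPKM in U87. Each treated library was below its own Control, and the U251 ratio of -1.10 (-1.20 to -1.01) was well under the U87 ratio of -0.28 (-0.37 to -0.19). AURKB, the kinase of that complex, had 52.3 and 37.6 FPKM in U251 and 30.7 and 28.9 FPKM in U87. It was thus less affected than its scaffold, with ratios of -0.47 (-0.57 to -0.38) and -0.08 (-0.20 to 0.03). PLK1, a kinase of centrosome maturation and spindle assembly, had 26.5 and 19.2 FPKM in U251 and 30.8 and 28.5 FPKM in U87, and ratios of -0.46 (-0.55 to -0.37) and -0.11 (-0.20 to -0.03). AURKA, the centrosomal Aurora kinase, had the highest mean ratio of the group, at 38.9 and 31.2 FPKM in U251 and 52.2 and 53.3 FPKM in U87. Both U87 libraries were above both U251 libraries for AURKA, and the ratios were -0.32 (-0.41 to -0.23) and 0.03 (-0.05 to 0.11). The passenger subunits BIRC5 (survivin) and CDCA8 (borealin) had ratios of -0.61 and -0.37 in U251 and of -0.17 and -0.08 in U87.

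The 5 spindle checkpoint genes were all lower in U251 (median -0.35). None had a U87 interval that excluded 0 (28% of all genes lower and 15.7% higher), and the U87 median was -0.02. BUB1B, which encodes BubR1 of the mitotic checkpoint complex, was at 30.0 and 17.8 FPKM in U251 Control and Bru and at 17.6 and 16.5 FPKM in U87. Treated U251 came down to the level of the U87 libraries, with ratios of -0.75 (-0.84 to -0.66) and -0.09 (-0.20 to 0.02). BUB3, which carries BubR1 and BUB1 to kinetochores and has roles outside mitosis, stayed within 26.3, 23.4, 26.1 and 25.2 FPKM in the 4 libraries in the same order. Its ratios were -0.17 (-0.24 to -0.11) in U251 and -0.05 (-0.11 to 0.02) in U87, the latter above 0 under scaling to the 75th percentile. Of the other members, MAD2L1, which inhibits CDC20, was at -0.79 in U251, while the kinases TTK and BUB1 were at -0.35 and -0.29.

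Centromere and kinetochore genes had a U251 median of -0.62 and a U87 median of -0.08. In U251 all 7 were lower and 5 were past 1.5-fold, against 15.6% of all genes. SPC25, a subunit of the microtubule-binding Ndc80 complex, was at 21.6 and 10.1 FPKM in U251 Control and Bru and at 16.7 and 15.9 FPKM in U87. Only treated U251 was low, and the ratios were -1.09 (-1.28 to -0.91) and -0.06 (-0.24 to 0.11), so that the U251 interval included 2-fold. NDC80, the subunit after which the complex is named, had the highest mean ratio, with 26.4 and 20.5 FPKM in U251 and 18.1 and 17.1 FPKM in U87. Its ratios were -0.36 (-0.47 to -0.27) and -0.08 (-0.20 to 0.04). SPC24, the partner of SPC25, was at 22.9 and 12.9 FPKM in U251 and at 13.2 and 14.8 FPKM in U87. SPC24 thus differed in direction, with ratios of -0.83 (-0.97 to -0.70) in U251 and 0.17 (0.02 to 0.32) in U87. NUF2, the fourth subunit, was at -0.83 in U251 and -0.30 in U87, the lowest U87 ratio of the group. CENPF, CENPE and CENPA, a kinetochore protein, a kinetochore motor and the centromeric histone, were at -0.62, -0.60 and -0.48 in U251 and at -0.18, -0.27 and -0.01 in U87.

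All 8 kinesins, the motors that move along or take apart microtubules, were lower in U251, with a median of -0.67. Past 1.5-fold were 5 of them, against 15.6% of all genes. In U87, 5 were below 0 with a median of -0.10. KIF15, a motor that helps keep the spindle bipolar, was at 8.92 and 4.66 FPKM in U251 Control and Bru and at 7.34 and 6.47 FPKM in U87. Treated libraries were lower in both lines, and the ratios were -0.92 (-1.10 to -0.78) and -0.18 (-0.34 to -0.02). KIF4A, a chromosome-bound motor of the central spindle, was at 44.8 and 38.8 FPKM in U251 and at 21.4 and 19.0 FPKM in U87. For KIF4A the lines responded nearly alike, with overlapping ratios of -0.21 (-0.27 to -0.14) and -0.16 (-0.27 to -0.07), though the untreated levels were apart. KIF11, the motor that pushes spindle poles apart, had a U251 ratio of -0.88 and a U87 ratio of -0.07. The cytokinesis motors KIF20A, KIF14 and KIF23 were at -0.73, -0.73 and -0.61 in U251 and at 0.01, 0.08 and 0.03 in U87, where each interval included 0. KIF2C and KIF18A, which shorten or restrain microtubules, were at -0.50 and -0.33 in U251 and at -0.15 and -0.14 in U87.

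Of the 6 spindle-associated genes, 5 were lower in U251 (median -0.66) and 5 in U87 (median -0.10). NUSAP1, which bundles spindle microtubules, was at 11.7 and 6.70 FPKM in U251 Control and Bru and at 6.89 and 5.83 FPKM in U87. Both lines were lower after Bru, at -0.80 (-0.997 to -0.62) and -0.24 (-0.47 to -0.01). HMMR, a hyaluronan receptor that also binds spindle microtubules, went the other way, with 22.4 and 23.3 FPKM in U251 and 20.8 and 23.3 FPKM in U87. The ratios were 0.06 (-0.04 to 0.15) in U251 and 0.17 (0.07 to 0.27) in U87. ASPM, a spindle pole protein, had a U251 ratio of -0.94 and a U87 ratio of -0.04. DLGAP5, TPX2 and CKAP2 were at -0.71, -0.61 and -0.48 in U251 and at -0.10, -0.17 and -0.09 in U87.

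In cytokinesis, ANLN, which links actin and septins in the contractile ring, was at 73.6 and 41.4 FPKM in U251 Control and Bru and at 42.7 and 33.4 FPKM in U87. It was the lowest of all 51 genes in U87, with ratios of -0.83 (-0.88 to -0.78) in U251 and -0.35 (-0.42 to -0.29) in U87. ECT2, the exchange factor that activates RhoA at the cell equator, had 57.6 and 43.7 FPKM in U251 and 24.4 and 23.8 FPKM in U87. Treated U251 was still above both U87 libraries, and the ratios were -0.40 (-0.45 to -0.34) and -0.04 (-0.12 to 0.05), the latter turning above 0 under 4 other scalings. PRC1, which bundles the central spindle, was listed at 0.828, 0.566, 0.601 and 0.582 FPKM (96, 58, 60 and 56 reads) and was not ranked. Its gene record on chromosome 15 (90966038 to 90995629, minus strand) shares 57.6% of its exon bases with the same-strand record AC068831.7, which held 396, 146, 152 and 142 reads, and the part of this overlap in the low level was not tested.

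The 4 genes of anaphase onset were the least shifted group in U251, with a median of -0.29, against -0.12 in U87. ESPL1, the separase that cuts cohesin, was at 12.3 and 6.15 FPKM in U251 Control and Bru and at 9.87 and 9.07 FPKM in U87. Treated U251 was the lowest library, and the ratio of -0.98 (-1.10 to -0.89), just short of 2-fold, compared with -0.12 (-0.23 to -0.02) in U87. CDC20, the APC/C activator that is the target of the checkpoint, was at 108 and 116 FPKM in U251 and at 80.5 and 83.4 FPKM in U87. Treated libraries were thus slightly higher in both lines, at 0.11 (0.05 to 0.17) and 0.05 (-0.02 to 0.12). CDC20 was the most abundant member in treated U251. UBE2C, the ubiquitin-conjugating enzyme of the APC/C, and PTTG1, the securin that restrains separase, were at -0.34 and -0.25 in U251 and at -0.12 and -0.13 in U87.

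Chromosome structure genes had a U251 median of -0.65 and a U87 median of -0.08. In U251 all 6 were lower and 4 were past 1.5-fold, against 15.6% of all genes. MKI67, the proliferation antigen that coats mitotic chromosomes, was at 47.3 and 21.8 FPKM in U251 Control and Bru and at 45.1 and 41.6 FPKM in U87. The 2 untreated libraries were nearly alike and only treated U251 was low, with ratios of -1.11 (-1.16 to -1.07) and -0.12 (-0.16 to -0.08). TOP2A, the topoisomerase that untangles sister DNA, was at 154 and 82.6 FPKM in U251 and at 60.0 and 49.0 FPKM in U87. TOP2A was lower in both lines, at -0.89 (-0.93 to -0.86) and -0.29 (-0.34 to -0.24), and its U251 level after Bru was still above that of untreated U87. SMC2, a core condensin ATPase, was at 18.2 and 14.8 FPKM in U251 and at 19.2 and 20.6 FPKM in U87. The lines lay on opposite sides of 0 for SMC2, at -0.29 (-0.38 to -0.20) and 0.10 (0.01 to 0.18). The other condensin subunits NCAPG, NCAPH and SMC4 were at -0.68, -0.61 and -0.56 in U251 and at -0.04, -0.13 and -0.05 in U87.

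**Figure D3:**
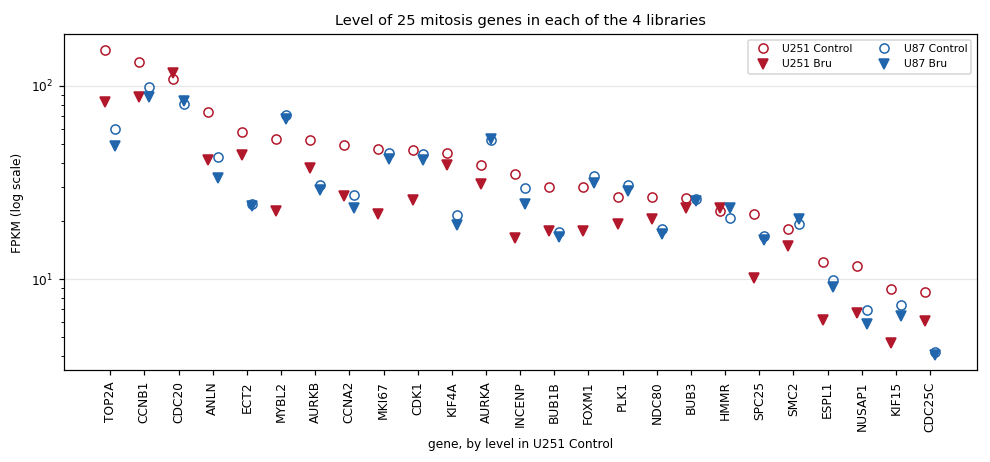
FPKM (vertical axis, log scale) of 25 mitosis genes in each of the 4 libraries, ordered by level in U251 Control, with open circles for Control, filled triangles for Bru, red for U251 and blue for U87. Each symbol is 1 library. In U251 the triangle lies below the circle for all but CDC20 (108 and 116 FPKM) and HMMR (22.4 and 23.3 FPKM). In U87 triangles and circles lie closer together for most genes. Furthest below there are ANLN (42.7 and 33.4 FPKM), TOP2A (60.0 and 49.0 FPKM) and INCENP (29.6 and 24.4 FPKM), while CDC20, HMMR, AURKA and SMC2 lie above.

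Levels of subunits that work in 1 complex, and of the spindle checkpoint genes as a set, were compared per length, in FPKM, within each library. In the Ndc80 complex the highest subunit was 1.43 times the lowest in U251 Control and 2.03 times in U251 Bru, where SPC25 was lowest. In U87 the ratio was 2.48 and 2.89, with NUF2 lowest in both libraries. For the chromosomal passenger complex the ratio went from 1.54 to 2.32 in U251, with INCENP lowest in both, and from 1.79 to 1.86 in U87. The 5 checkpoint genes, whose products do not form 1 complex, spanned 1.44 and 1.78 in U251 but 4.01 and 3.93 in U87, where TTK was lowest and BUB3 highest. Condensin I, taken with its remaining subunit NCAPD2, spanned 2.28 and 1.90 in U251 and 2.28 and 2.05 in U87, with SMC2 lowest in all 4 libraries.

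Before treatment the 2 lines already differed in these genes. The median log2 ratio of untreated U87 to untreated U251 was -0.42, and 44 of 51 genes were lower in U87, against 50.4% of all genes. By size 12 (23.5%) were more than 2-fold lower, against 16% of all genes, and 0 were more than 2-fold higher, against 14.5%. At 1.5-fold 21 were lower, against 26.8%. The counting interval lay below 0 for 42, against 40.9%, and above 0 for 6, against 40.1%. TTK had the lowest ratio, -2.08, with 27.9 FPKM in untreated U251 and 6.51 in untreated U87. NUF2, ASPM and KIF14 followed at -2.06, -1.96 and -1.94. CENPF, TOP2A, MAD2L1, ECT2, KIF11, KIF4A, CENPE and CDC25C made up the rest, from -1.68 to -1.02. On the other side UBE2C was at 81.8 FPKM in U251 and 130 in U87, a ratio of 0.67 and the only one past 1.5-fold upward (background 25%), while AURKA and MYBL2 were each at 0.42. The untreated levels of the 51 genes nevertheless kept much the same order in both lines (Pearson r 0.84 and Spearman rho 0.80 on log2 FPKM, as a description across genes). These ratios share the Control libraries with the Bru ratios, and each is given for its own comparison.

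**Figure D4:**
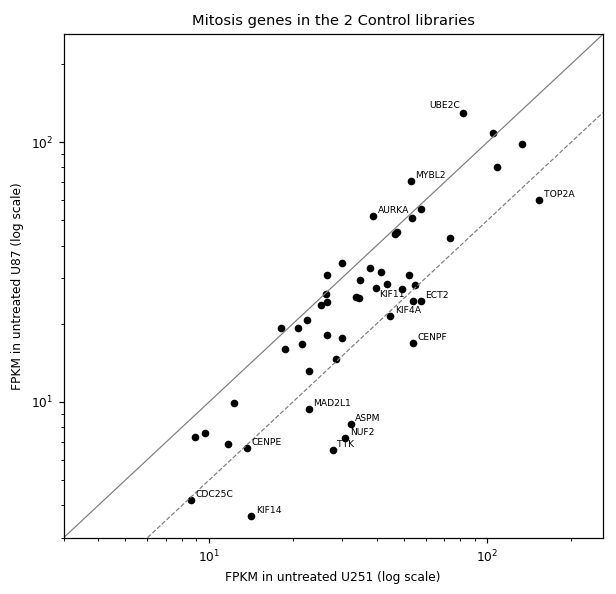
FPKM of the 51 mitosis genes in untreated U251 (horizontal axis) and untreated U87 (vertical axis), both on log scales, 1 point per gene. The solid line marks equal levels and the dashed line a 2-fold lower level in U87. The 12 genes below the dashed line include TTK, NUF2, ASPM and KIF14, and UBE2C stands highest above the solid line.

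The rest of the mitotic machinery was described by 6 further lists of 112 names, of which 110 were found and passed the filter. Their median was -0.36 in U251, with 88 below 0, against 52.1% of all genes. In U87 the median was -0.07, with 76 below 0, against 56.7% of all genes. There 0 were past 1.5-fold, against 4.49% of all genes lower and 4.56% higher. In U251, 28 were more than 1.5-fold lower and 2 higher, against 15.6% and 11.3% of all genes, and 3 were more than 2-fold lower, against 5.44%. The 3 past 2-fold were all spindle genes: KIFC1, a minus-end motor, at -1.15, STMN1, which destabilises microtubules, at -1.02, and KIF18B, a microtubule-end kinesin, at -1.01. Their U87 ratios were -0.32, -0.27 and -0.09. Over the 20 other kinesin and spindle genes all were below 0 in U251 (median -0.40) and 18 in U87 (-0.09). Medians for U251 and U87 were -0.48 and -0.08 for 31 other kinetochore genes and -0.36 and -0.11 for 10 other cytokinesis genes. They were -0.39 and -0.13 for 16 other mitotic kinases, phosphatases and their regulators, the last being ARPP19, ENSA, BOD1 and BORA.

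Named kinetochore genes of those lists were HJURP, the chaperone that deposits CENPA (-0.85 in U251 and -0.42 in U87), CENPC (-0.58 and -0.43) and CENPK (-0.80 and -0.20). Among kinases, PBK, a mitotic kinase, was at -0.996 and -0.17, and WEE1 and PKMYT1, which hold CDK1 inactive, were at -0.97 and -0.86 in U251 and at -0.10 and -0.19 in U87. CIT, SHCBP1 and CEP55 of cytokinesis were at -0.66, -0.65 and -0.41 in U251. The CDK1 activator CDC25C and the inhibitors WEE1 and PKMYT1 thus stood lower together in treated U251.

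Other condensin and cohesin genes were less shifted (17 genes, medians -0.27 and -0.03). Largest in size by the mean ratio of both lines, not by U251 alone, were NCAPD3 and NCAPG2 of condensin II and PDS5B of cohesin. Their U251 ratios were -0.86, -0.84 and -0.53. In the same list 3 of the 17 genes had intervals above 0 in U251, against 30.9% of all genes. They were WAPL, which releases cohesin (0.44), STAG1, a cohesin subunit (0.23), and NIPBL, the cohesin loader (0.21). These were named after their values were seen. The 17 other APC/C genes were not lower as a list, with a median of 0.06 in U251 and of -0.01 in U87. Among them ANAPC13, a small core subunit, was at 0.71 in U251, whereas FBXO5, the APC/C inhibitor EMI1, was at -0.59 and the activator FZR1 at -0.44. Of these 17 genes, 10 were above 0 in U251, against 6110 of all 12949 genes, and 7 had an interval above 0, against 30.9%.

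Of the upstream regulators, 14 DREAM and MuvB subunits, which silence or activate these promoters, had a U251 median of -0.20 and a U87 median of -0.11. TFDP1, the partner of E2F factors, was at -0.84 and -0.24, RBL2 (p130), the pocket protein of DREAM, at -0.45 and -0.29, and LIN37, with 50 to 94 reads, at -0.19 and -0.64. Inhibitors of cyclin-dependent kinases and G1 cyclins had a U251 median of -0.61 over the 13 of 18 that passed the filter, against -0.03 in U87, and 4 were more than 2-fold lower in U251 (5.44% of all genes). CCND1, cyclin D1 of early G1, was at 133 and 44.0 FPKM in U251 Control and Bru and at 153 and 141 FPKM in U87. The U251 ratio of CCND1 was -1.59 and the U87 ratio -0.11. CDKN1A, the p53-induced inhibitor p21, was at 35.6 and 12.7 FPKM in U251 and at 83.7 and 132 FPKM in U87. It moved in opposite directions, with ratios of -1.48 (-1.61 to -1.36) and 0.66 (0.60 to 0.71). CCNE1 and CCNE2, the E-type cyclins of S phase entry, were at -1.40 and -1.17 in U251 and at 0.03 and -0.38 in U87, and CDKN3, a phosphatase of cyclin-dependent kinases, was at -0.29 and 0.03.

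G1/S genes, which prepare DNA replication and precede mitosis in the cycle, had lower U251 ratios than the mitosis genes. All 22 were below 0 in U251 (52.1% of all genes), with a median of -0.90. Of them, 20 were more than 1.5-fold lower (15.6% of all genes) and 6 more than 2-fold lower (5.44%). In U87 the median was -0.16. CCNE2, GINS2 and MCM6, the last a subunit of the replicative helicase, were at -1.17, -1.14 and -1.02 in U251 and at -0.38, -0.35 and -0.35 in U87. The difference between the medians of the lists was not tested.

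**Figure D5:**
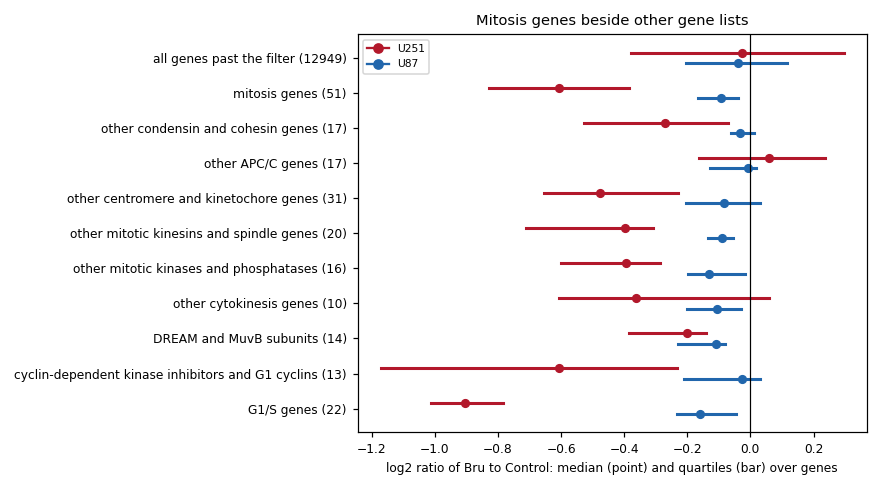
Median (point) and quartiles (bar) of the log2 ratio of Bru to Control (horizontal axis) over the genes of each list, U251 in red and U87 in blue, with the number of genes in brackets. In U251 the G1/S genes (-0.90) and the mitosis genes (-0.61) lie left of all genes (-0.03), and the other APC/C genes (0.06) do not. In U87 the list medians lie between -0.16 and -0.01. The list labelled DREAM and MuvB subunits also holds NFYA, NFYB and NFYC. That of other mitotic kinases and phosphatases also holds regulators of these enzymes.

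Markers were read to check the labelled cell type. VIM, an intermediate filament of mesenchymal and glial cells, was at 606 to 701 FPKM, CD44 at 94.5 to 125 and EGFR at 12.3 to 15.7 in the 4 libraries. Of the 12 glioma and astrocyte markers 7 passed the filter. SOX2 and NES, markers of neural stem cells, were abundant in U251 Control (129 and 125 FPKM) but at 0 and 1.46 FPKM in U87 Control, and GFAP, the astrocyte filament, was at 2.42 FPKM or less everywhere. AQP4, S100B and CHI3L1 were under 1 FPKM in every library. Of 10 markers of myeloid, epithelial, endothelial, neuronal and oligodendrocyte cells only SYT1 passed the filter (1.73 to 6.02 FPKM), and CDH1 and MOG were at 0 reads throughout. NES was lower after Bru in both lines, at -1.30 and -1.23, and FABP7, with 1 and 0 reads in U87, was at -1.97 in U251.

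Some ratios rest on shared sequence. NUSAP1 shares 62.2% of its exon bases with the same-strand record AC087721.2, which held 0 reads in all 4 libraries. How reads on both records were counted is not known, and the part of this overlap in the level of NUSAP1 was not tested. KIF4A shares 13.7% of its 50-base stretches with its retrocopy KIF4B, which held 18, 6, 6 and 3 reads, far fewer than the 1502 to 4257 of KIF4A. NCAPG and SMC4 overlap genes on the opposite strand over 33.1% and 25.6% of their exon bases. Without strand information their reads there cannot be told apart from those of LCORL and TRIM59. The same holds for FOXM1 over 15.9% (ITFG2) and for PLK1 over 12.5% (AC008870.3) of exon bases. The other members past the filter shared at most 10.2% of exon bases with a same-strand gene, the value for BUB1B.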

How the data were processed

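RNA of U251 and U87 cells was sequenced from 1 library per condition. The authors deposited FPKM per gene, and their processing notes name HISAT2 2.0.5, featureCounts 1.5.0-p3, StringTie 1.3.3b and DESeq2 1.16.1 without their roles. Those notes also name hg18, but all 58735 gene coordinates equal GENCODE 29 on GRCh38, which was used here. Strand handling in counting is not given in the sources used here.

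FPKM times gene length gave whole reads for 100% of values (tolerance 0.01 reads), which were used for exact Clopper-Pearson intervals only. Ratios were taken on log2(FPKM + 0.1) over genes with a mean of at least 1 FPKM, with thresholds of 2-fold and 1.5-fold. With 1 library per condition no test was run. Samples were grouped by title and treatment label. The members, the 11 companion lists and the rules were chosen with earlier results of these data known, so the lists are no independent support. Named with all 4 levels were genes past 2-fold, those with the lowest and highest mean ratio in each of 10 roles, and CCNB1, CDK1, PLK1, AURKA, AURKB, MKI67, TOP2A and FOXM1. From each companion list the 3 genes with the largest mean ratio in size were named, with CDKN1A, CDKN3, CCND1 and RBL2. SPC24 and SMC2 were given for their opposite ratios, chosen after their values were seen. SEPT7 and SEPT9 did not match a name in the files. Promoter windows came from RefSeq (GRCh38.p14), and in 48 of the 54 member windows the first 40 bases after the start were found in a GENCODE transcript. Protein sequences were not analysed here. Scripts were tested on simulated data and used Python 3.11.15, numpy 2.4.6, pandas 2.3.3, scipy 1.17.1 and matplotlib 3.10.9. The alternatives were other pseudocounts, filters, scalings, TPM, protein-coding genes only and other call rules.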

Additional observations from a re-analysis of the deposited data

Results flagged for a closer look

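SPC24, of the Ndc80 complex, had counting intervals on opposite sides of 0 in the 2 lines, with log2 ratios of Bru to Control of -0.83 in U251 and 0.17 in U87. SMC2, of condensin, likewise had -0.29 in U251 and 0.10 in U87. Among the companion lists CDKN1A had -1.48 in U251 and 0.66 in U87. Each condition was 1 library, so the difference between the lines was not tested for any of the 3 genes. Under the scalings and pseudocounts tried, the U87 ratio ran from 0.16 to 0.22 for SPC24, from 0.09 to 0.15 for SMC2 and from 0.65 to 0.71 for CDKN1A, and no ratio of these genes changed sign. Intervals on opposite sides of 0 were seen for 2 of the 51 mitosis genes (3.92%) and for 666 of all 12949 genes (5.14%), so that the share among mitosis genes was near that of genes at large.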

How the results depend on the processing

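The median log2 ratio of the mitosis genes ran from -0.61 to -0.52 in U251 and from -0.10 to -0.04 in U87 over all alternatives, and the median difference between lines from -0.48 to -0.44. The count more than 2-fold lower in U251 became 29 at the 1.5-fold cutoff. In U251, 2 genes had an interval above 0 with scaling to the 75th percentile, with reads without mitochondrially encoded genes and with total reads on genes, the last an alternative chosen after seeing the data. In U87 the genes with an interval below 0 became 13, 16 and 16 under these 3 settings, and those above 0 became 7, 5 and 5, with 5 also when the median ratio of all genes was set to 0. The cause was not tested beyond the scaling itself. The other 243 values of the main results stayed within the limits set for them. Of 27 named genes, all kept their sign in U251 and 24 in U87, the exceptions being BUB3 (0.01) and CDC25C (0.0049) with the 75th percentile, and ECT2, which was at 0.02 with the 75th percentile, 0.01 with reads without mitochondrially encoded genes, 0.01 with total reads and 0.0026 with the median set to 0. No scaling moved the median of all genes by more than 0.1. Leaving out NUSAP1 and BUB1B, which share more than 10% of their exon bases with another same-strand gene, also chosen after seeing the data, left 49 genes, of which 47 were below 0 in U251, 27 more than 1.5-fold lower and 4 more than 2-fold lower, and 40 were below 0 in U87, with 24 intervals below 0. With 1 library per condition no library could be left out within a line, and a fit over both lines with line as a block was not run. Few reads stand behind PRC1 (56 to 96 reads), LIN37 (50 to 94), and SOX2 and FABP7 in U87 (0 to 2 and 0 to 1).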
